A study of Sus scrofa with 24 samples.

Results

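NCAM1, ALCAM and CHRNA1, which encode an adhesion molecule of the muscle cell surface, a second adhesion molecule of the same immunoglobulin superfamily and a subunit of the acetylcholine receptor, were followed through pig skeletal muscle development. They were selected by gene symbol in the array annotation, as 3 of the 6765 genes that had a probe set with exactly 1 symbol. Together they had 9 of the 23999 probe sets tested, with 4 for NCAM1 (Entrez gene 100515564), 4 for ALCAM (397269) and 1 for CHRNA1 (396587). For each gene the brightest probe set, by its mean of the 24 arrays, is the main one, and the others are given beside it.

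The 24 Affymetrix Porcine Genome Arrays held RNA of the longissimus dorsi, the long back muscle, in 8 groups of 3 RNA pools named a, b and c. Pools came from Pietrain (Pi) and German landrace (DL) pigs, from fetuses of 35, 63 and 91 days post conception (dpc) and from adults. All groups share the muscle, the RNA preparation, the array type and collection at slaughter, and the labels name no treatment or allele. How many animals went into each pool, of which sex, and how old the adults were is not stated in the labels. A p-value here sets a difference against pool-to-pool spread only, which may be partly technical. A free-text label calls the fetal animals peripubertal, against the stage in their other labels, and the titles at 35 dpc alone carry a K of unstated meaning.

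NCAM1 (neural cell adhesion molecule 1, CD56) holds cells together through its own kind and is carried by neurons, myoblasts and young myotubes. In adult muscle of mammals it is known from satellite cells and the nerve-muscle contact, and it returns along the fibre surface after denervation. ALCAM (CD166) binds itself and CD6 and is known from growing axons, motor neurons, mesenchymal cells and haematopoietic cells. CHRNA1 is the alpha subunit of the muscle nicotinic acetylcholine receptor, the subunit that carries the main acetylcholine-binding face. Fetal myotubes make it along their whole length, and innervated adult fibres confine it to the nuclei under the synapse.

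Levels are log2 intensities from a table that the authors had quantile-normalised, so a change means one against the rest of the array. The median change over all tested probe sets was 0.004, 0.002 and 0.059 on the log2 scale for the 3 successive stage steps. Each array has a background ceiling, the highest of 23 control probe sets with no target in the sample, which lay between 2.31 and 2.69. The muscle label was checked with 15 measured fibre marker genes, none of which was at the ceiling throughout a group. Their summed linear intensity was 113085 to 118853 in Pi and 122731 to 132199 in DL at 35 dpc, and 595263 to 608856 in Pi and 612046 to 614089 in DL in adults. The check covers the presence of fibre RNA only. At 35 dpc 17 measured neuron and Schwann cell markers summed to 49468 to 62493 in Pi and 56520 to 64389 in DL. Pools of a group correlated at 0.926 to 0.992 across probe sets, and no 2 arrays were identical. In bulk tissue, fewer cells of a type and less RNA per cell cannot be told apart.

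The 3 genes followed different courses. Between 35 and 63 dpc, NCAM1 and ALCAM fell and CHRNA1 rose. Between 63 and 91 dpc NCAM1 fell again, while ALCAM and CHRNA1 did not pass the test. All 3 fell between 91 dpc and the adult stage when both breeds were averaged. The main NCAM1 probe set was then at background in all 6 adult pools, while 2 other NCAM1 probe sets were each above it in 5 of 6.

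Changes were tested with limma and called at a Benjamini-Hochberg adjusted p below 0.05 over all tested probe sets. For 63 against 35 dpc, 1 of the 3 genes was called higher, where 22.3% of all tested probe sets were, and 2 were called lower, where 22% were. For 91 against 63 dpc none was called higher (8.88% of all probe sets) and 1 was called lower (9.4%). For adults against 91 dpc none was called higher (30.8%) and 3 were called lower (26.6%). Calls in these steps were thus common on the array, and the shares of 3 genes carry little weight beside the sizes.

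**Figure D1:**
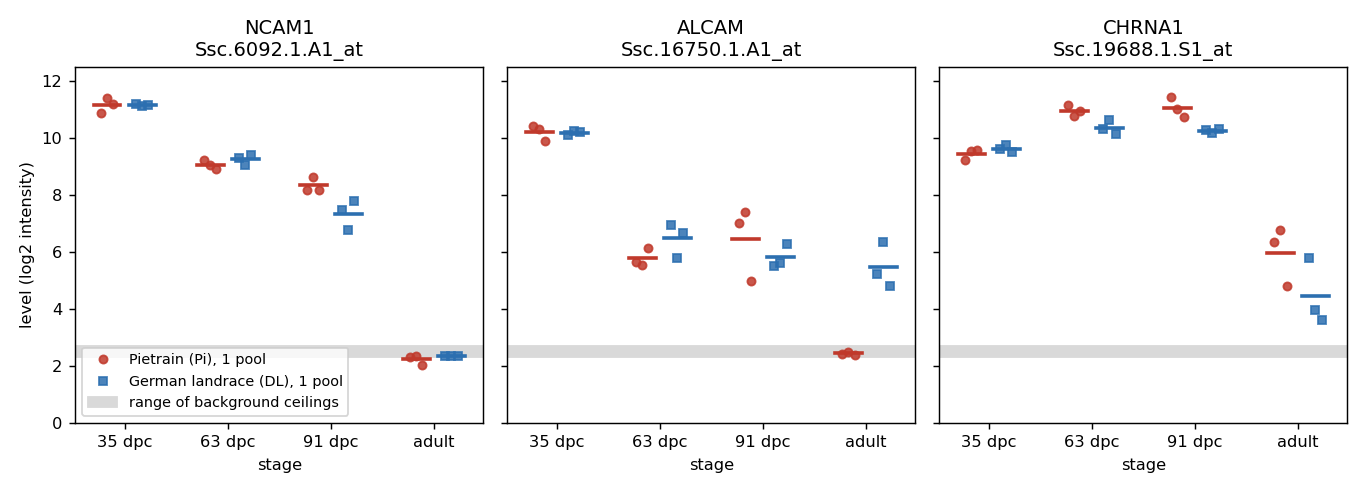
Level of the main probe set of NCAM1, ALCAM and CHRNA1 (log2 intensity) by stage, with a point for each pool of Pi (red circles) and DL (blue squares), a bar for each group mean and a grey band for the range of background ceilings over the 24 arrays. All 6 adult pools lie in or below the band for NCAM1, the 3 adult Pi pools lie in it for ALCAM while the 3 adult DL pools lie above it, and CHRNA1 stays above it everywhere.

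NCAM1 fell at each stage step. Its main probe set, Ssc.6092.1.A1_at, held 10.88, 11.40 and 11.19 in the Pi pools at 35 dpc, 9.21, 9.03 and 8.90 at 63 dpc, 8.18, 8.63 and 8.19 at 91 dpc, and 2.32, 2.36 and 2.02 in adults. In the DL pools it held 11.19, 11.12 and 11.17 at 35 dpc, 9.30, 9.06 and 9.39 at 63 dpc, 7.48, 6.77 and 7.79 at 91 dpc, and 2.34, 2.34 and 2.33 in adults. Every pool of a stage lay below every pool of the stage before it, in both breeds.

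Averaged over breeds, NCAM1 fell by 2.01 ± 0.14 on the log2 scale at 63 against 35 dpc, a 4.03-fold lower level (limma, adjusted p = 1.44e-09). It fell by a further 1.31 ± 0.14 at 91 against 63 dpc, 2.48-fold lower (limma, adjusted p = 2.55e-06). Values after ± are standard errors of the fit, which uses all 24 arrays. In adults it was at least 38.0-fold lower than at 91 dpc (limma, adjusted p = 6.4e-16), a bound taken against the background ceiling because none of the 6 adult pools exceeded it.

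NCAM1 averaged 11.16 ± 0.26 in Pi and 11.16 ± 0.04 in DL at 35 dpc (SD, n = 3 each), 9.05 ± 0.16 in Pi and 9.25 ± 0.17 in DL at 63 dpc, 8.33 ± 0.26 in Pi and 7.34 ± 0.52 in DL at 91 dpc, and 2.23 ± 0.19 in Pi and 2.34 ± 0.01 in DL adults. Ordered by these means the groups followed stage, from 35 dpc at the top to adults at the bottom. The breeds overlapped at 35 dpc, at 63 dpc and in adults, and not at 91 dpc.

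At 91 dpc NCAM1 was higher in Pi than in DL by 0.99 ± 0.20 on the log2 scale, 1.98-fold (limma, adjusted p = 0.0125), and the lowest Pi pool (8.18) lay above the highest DL pool (7.79). It was the only one of the 3 genes called at that stage, where 2.72% of all tested probe sets were called. The call was lost without Pi pool b, the highest of its group (0.84, adjusted p = 0.0791), and with only the 91 dpc arrays in the fit (adjusted p = 0.275). It was also lost with hybridisation-control scaling (0.67, adjusted p = 0.0532) and with the 3' minus 5' difference of the GAPDH control probe sets, a sign of RNA integrity, as a covariate (0.63, adjusted p = 0.16). That GAPDH difference averaged 1.03 in Pi and 0.56 in DL at 91 dpc, and its part in the NCAM1 difference was not tested beyond this fit. The breed differences of the other NCAM1 probe sets at 91 dpc were 0.09, 0.48 and 0.12, none of them called. For the main probe set, the spread shared over all groups includes the adult pools at background, with an SD of 0.19 in Pi and 0.01 in DL. With only the 91 dpc arrays in the fit, the standard error of the breed difference was 0.30 in place of 0.20.

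At 91 against 63 dpc NCAM1 fell by 0.72 ± 0.20 in Pi (limma, adjusted p = 0.0261) and by 1.91 ± 0.20 in DL (limma, adjusted p = 3.93e-06). The Pi call was lost when any 1 of 4 of the 6 pools was left out (adjusted p up to 0.107) and with only the compared arrays in the fit. The Pi step minus the DL step was 1.19 ± 0.28, with a 95% interval of 0.59 to 1.79 and an adjusted p of 0.119 in limma. None of the 3 genes was called for this difference of steps, for which only 0.0917% of all probe sets were called. NCAM1 was not called between the breeds at 35 dpc, where the interval was -0.42 to 0.42, or at 63 dpc, where it was -0.63 to 0.22.

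The other 3 NCAM1 probe sets also fell early. At 63 against 35 dpc Ssc.20816.1.S1_at fell by 0.97 ± 0.31, Ssc.6092.3.S1_at by 2.50 ± 0.36 and Ssc.6092.2.S1_at by 2.44 ± 0.24, all called. At 91 against 63 dpc they fell by 1.98, 1.35 and 2.24, again all called. Across the 24 arrays their Pearson correlation with the main probe set was 0.948, 0.825 and 0.916, a description over arrays that share stage and normalisation.

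The NCAM1 probe sets parted in adults. Ssc.6092.2.S1_at was at background in 5 of 6 adult pools and fell by 1.98 ± 0.24 against 91 dpc (limma, adjusted p = 1.05e-06). Ssc.20816.1.S1_at fell by 2.86 ± 0.31 (limma, adjusted p = 3.21e-07), to 3.02, 2.59 and 2.51 in adult Pi pools and 5.44, 3.97 and 2.73 in adult DL pools. Its adult pools overlapped between breeds, with a difference of -1.34 ± 0.44 that was not called (limma, adjusted p = 0.0838).

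Ssc.6092.3.S1_at kept a level above the ceiling in 5 of 6 adult pools, at 4.94, 4.60 and 4.83 in Pi and 2.54, 4.62 and 4.88 in DL. Its change against 91 dpc was -0.85 ± 0.36 (limma, adjusted p = 0.0544), and only DL pool a was at background. NCAM1 signal at background in adults therefore holds for the main probe set and, in 5 of 6 pools, for Ssc.6092.2.S1_at, not for every NCAM1 probe set. The labels and the annotation do not say which part of the transcript each probe set reads.

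**Figure D2:**
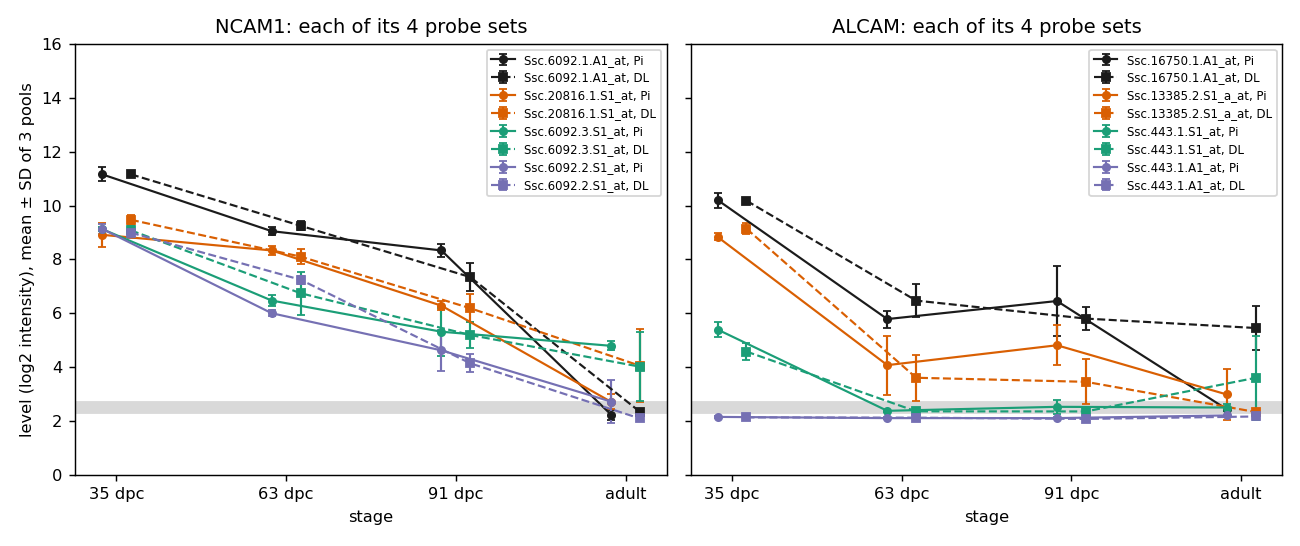
Mean level ± SD of 3 pools (log2 intensity) of the 4 NCAM1 and the 4 ALCAM probe sets by stage, in Pi (solid lines, circles) and DL (dashed lines, squares), with the range of background ceilings in grey. All NCAM1 probe sets fall through fetal life and part in adults, and the ALCAM probe sets other than Ssc.443.1.A1_at fall between 35 and 63 dpc.

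The fall of ALCAM in fetal life lay between 35 and 63 dpc. Its main probe set, Ssc.16750.1.A1_at, held 10.42, 10.30 and 9.89 in the Pi pools at 35 dpc, 5.65, 5.55 and 6.14 at 63 dpc, 7.00, 7.39 and 4.97 at 91 dpc, and 2.41, 2.50 and 2.40 in adults. In the DL pools it held 10.10, 10.25 and 10.19 at 35 dpc, 6.96, 5.80 and 6.65 at 63 dpc, 5.49, 5.62 and 6.29 at 91 dpc, and 5.21, 6.34 and 4.80 in adults. The 35 dpc pools stood alone at the top in both breeds, and the adult Pi pools stood alone at the bottom.

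At 63 against 35 dpc ALCAM fell by 4.07 ± 0.34 on the log2 scale, 16.8-fold lower (limma, adjusted p = 1.71e-08), a larger size than that of 98.5% of all tested probe sets. The fall was 4.42 ± 0.49 in Pi and 3.71 ± 0.49 in DL, and the difference between these steps was -0.71 ± 0.69 (95% interval -2.16 to 0.74, limma, adjusted p = 0.831). None of the 3 genes was called for that difference, for which 3.3% of all probe sets were called.

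Between 63 and 91 dpc ALCAM changed by 0.00 ± 0.34 averaged over breeds (95% interval -0.72 to 0.73, limma, adjusted p = 1). The breeds' means went opposite ways, 0.67 ± 0.49 in Pi and -0.67 ± 0.49 in DL, neither of them called. Pi at 91 dpc was the most scattered fetal group, with an SD of 1.30 over 3 pools, and pool c (4.97) lay far below pools a and b (7.00 and 7.39). Without pool c the Pi step was 1.41 and called higher (limma, adjusted p = 0.0262).

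In adults ALCAM was lower in Pi than in DL by 3.02 ± 0.49 on the log2 scale (95% interval -4.04 to -1.99, limma, adjusted p = 0.00111). The highest adult Pi pool was at 2.50 and the lowest adult DL pool at 4.80, and pools a and c of adult Pi did not exceed their background ceilings. The change is a fitted value and not exact, since most adult Pi pools lay at background. ALCAM was the only one of the 3 genes called between adult breeds, where 6.33% of all probe sets were called, and its size exceeded that of 99.7% of all tested probe sets.

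The adult breed difference of ALCAM entered the stage steps. Against 91 dpc, adult ALCAM fell by 4.02 ± 0.49 in Pi (limma, adjusted p = 1.85e-06), without overlap. In DL the change was -0.35 ± 0.49 (95% interval -1.38 to 0.68, limma, adjusted p = 0.608), and the pools overlapped. The Pi step minus the DL step was -3.67 ± 0.69 (limma, adjusted p = 0.00842). With NCAM1, 2 of the 3 genes were called for this difference of steps, against 2.66% of all probe sets. The NCAM1 difference of -1.09 (limma, adjusted p = 0.0482) was not called in any of the 7 alternative fits (adjusted p from 0.0544 to 0.337). The adult NCAM1 pools were at background in both breeds, and the breeds differed by 0.99 at 91 dpc. Averaged over breeds, adult ALCAM was 2.18 ± 0.34 lower than at 91 dpc (limma, adjusted p = 2.57e-05), a mean of unlike steps. All values of this paragraph are those of the main probe sets.

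Residuals of the adult arrays were wider than those of the fetal arrays, with an SD of 0.749 to 0.852 in Pi and 0.646 to 0.708 in DL, against 0.287 to 0.567 over the fetal arrays. With arrays weighted by stage the adjusted p of the adult ALCAM difference was 0.0764, and with only adult arrays in the fit it was 0.155, both at the same difference of -3.02. The corresponding values for the difference of steps were 0.0804 and 0.138. The GAPDH 3' minus 5' difference was -0.61 to -0.55 in adult Pi and -0.46 to -0.39 in adult DL, against 0.25 to 1.31 over the fetal groups. With it as a covariate, the adult change of ALCAM averaged over breeds was -0.93 ± 0.95 (limma, adjusted p = 0.567) and the adult breed difference was called. All adult values of the GAPDH difference lay below all fetal ones, so this fit cannot tell it apart from the step to adults.

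Of the other 3 ALCAM probe sets, 2 shared the early fall, and none was called between adult breeds. Ssc.13385.2.S1_a_at fell by 5.15 ± 0.40 and Ssc.443.1.S1_at by 2.62 ± 0.33 at 63 against 35 dpc, both called. Ssc.443.1.A1_at lay at background on all 24 arrays and carries no information. The correlation with the main probe set over the 24 arrays was 0.871 for Ssc.13385.2.S1_a_at and 0.737 for Ssc.443.1.S1_at.

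In adults Ssc.13385.2.S1_a_at held 2.42, 4.07 and 2.46 in Pi pools and 2.28, 2.45 and 2.27 in DL pools. It was at background in 5 of these 6 pools, and the Pi minus DL difference of 0.65 ± 0.57 was not called and had the opposite sign to that of the main probe set. Ssc.443.1.S1_at held 2.65, 2.38 and 2.46 in adult Pi pools and 2.67, 5.41 and 2.71 in adult DL pools. Its difference of -1.10 ± 0.46 had the same sign as the main probe set and was not called (limma, adjusted p = 0.184). The breeds did not overlap, but the highest Pi pool (2.65) and the lowest DL pool (2.67) nearly met. Pi pools a and c were at background, and DL pools a and c lay just above their ceilings of 2.62 and 2.64, so the separation carries little weight. DL pool b alone was well above the rest, as it was the highest adult pool of the main probe set. Against 91 dpc Ssc.443.1.S1_at was called higher in DL (1.25 ± 0.46, limma, adjusted p = 0.0348) and was not called in Pi. The call between adult breeds thus rests on Ssc.16750.1.A1_at.

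ALCAM averaged 10.20 ± 0.28 in Pi and 10.18 ± 0.08 in DL at 35 dpc (SD, n = 3 each), 5.78 ± 0.31 in Pi and 6.47 ± 0.60 in DL at 63 dpc, 6.45 ± 1.30 in Pi and 5.80 ± 0.43 in DL at 91 dpc, and 2.44 ± 0.06 in Pi and 5.45 ± 0.80 in DL adults. Ordered by these means, the 5 groups between the 35 dpc pair and adult Pi each overlapped their neighbours. Gaps without overlap lay only below the 35 dpc pair and above adult Pi. ALCAM was not called between breeds at 35, 63 or 91 dpc, with differences of 0.02, -0.69 and 0.65. At 35 dpc none of the 3 genes was called between breeds, against 4.03% of all probe sets.

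CHRNA1, the receptor subunit, was at its highest in mid and late fetal muscle. Its probe set, Ssc.19688.1.S1_at, held 9.22, 9.53 and 9.58 in the Pi pools at 35 dpc, 11.15, 10.76 and 10.92 at 63 dpc, 11.44, 10.99 and 10.75 at 91 dpc, and 6.36, 6.76 and 4.80 in adults. In the DL pools it held 9.61, 9.75 and 9.51 at 35 dpc, 10.30, 10.62 and 10.13 at 63 dpc, 10.28, 10.17 and 10.31 at 91 dpc, and 5.80, 3.95 and 3.59 in adults. All pools at 63 and 91 dpc exceeded all pools at 35 dpc, and all adult pools lay below every fetal pool and above their background ceilings.

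CHRNA1 rose by 1.11 ± 0.33 on the log2 scale at 63 against 35 dpc, 2.16-fold (limma, adjusted p = 0.00914). The rise was 1.50 ± 0.46 in Pi (limma, adjusted p = 0.0153), a call lost without pool a of Pi at 35 dpc (1.39, adjusted p = 0.0545) or at 63 dpc (1.40, adjusted p = 0.0532). The change was 0.73 ± 0.46 in DL (limma, adjusted p = 0.283), where the pools still did not overlap. The difference between these steps was 0.77 ± 0.65 (95% interval -0.61 to 2.15, limma, adjusted p = 0.759), so the breeds were not shown to differ in it. Over the 7 alternative fits its adjusted p in limma ranged from 0.0744 to 0.893, and that of the averaged rise from 1.85e-05 to 0.444. When arrays were scaled to the hybridisation controls instead, the change was 0.30 and not called (adjusted p = 0.444), nor was the change within Pi. That scaling shifts all probe sets of an array by the same amount, and it moved the median of all probe sets to -0.81. The distance of CHRNA1 above that median, 1.11, therefore repeats the main fit by construction and adds no support to the rise.

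Between 63 and 91 dpc CHRNA1 changed by 0.01 ± 0.33 (95% interval -0.68 to 0.70, limma, adjusted p = 0.999). In adults it was lower than at 91 dpc by 5.45 ± 0.33, 43.6-fold (limma, adjusted p = 9.16e-11). The fall was 5.09 ± 0.46 in Pi and 5.81 ± 0.46 in DL, and its size exceeded that of 99.3% of all tested probe sets. The adult fall was called under each of the 7 alternative fits and without each of the 12 pools of these stages.

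The mean of CHRNA1 was higher in Pi than in DL from 63 dpc on, but no breed comparison of it passed the test in the main fit, so a breed difference was not shown. At 63 dpc all 3 Pi pools exceeded all 3 DL pools, by a mean of 0.59 ± 0.46 (95% interval -0.38 to 1.57, limma, adjusted p = 0.763), and 1.37% of all probe sets were called there. At 91 dpc the pools again did not overlap, with a difference of 0.81 ± 0.46 (limma, adjusted p = 0.49). The share of all probe sets without overlap between breeds was not counted, so the separation of the pools carries little weight. Adults differed by 1.53 ± 0.46 with overlapping pools (limma, adjusted p = 0.0589). Averaged over stages, the CHRNA1 difference was 0.69 ± 0.23 (limma, adjusted p = 0.0893), and none of the 3 genes was called over all stages, against 6.29% of all probe sets.

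Adult CHRNA1 was uneven between pools of a breed. The SD over 3 pools was 1.03 in adult Pi and 1.18 in adult DL, against 0.07 to 0.35 in the fetal groups. Since the fit shares 1 spread over all groups, the adult pools also widen the fetal standard errors and intervals of CHRNA1. DL pool a (5.80) lay among the Pi pools, and Pi pool c (4.80) among the DL pools. Without DL pool a the adult difference was 2.20, and without Pi pool c it was 2.11, and each of these was called. CHRNA1 averaged 9.45 in Pi and 9.62 in DL at 35 dpc, 10.95 in Pi and 10.35 in DL at 63 dpc, 11.06 in Pi and 10.26 in DL at 91 dpc, and 5.97 in Pi and 4.45 in DL adults. Ordered by mean, Pi at 91 and 63 dpc led, DL at 63 and 91 dpc followed, then both breeds at 35 dpc and last both breeds as adults. The 2 groups within each of these pairs overlapped, and successive pairs did not.

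**Figure D3:**
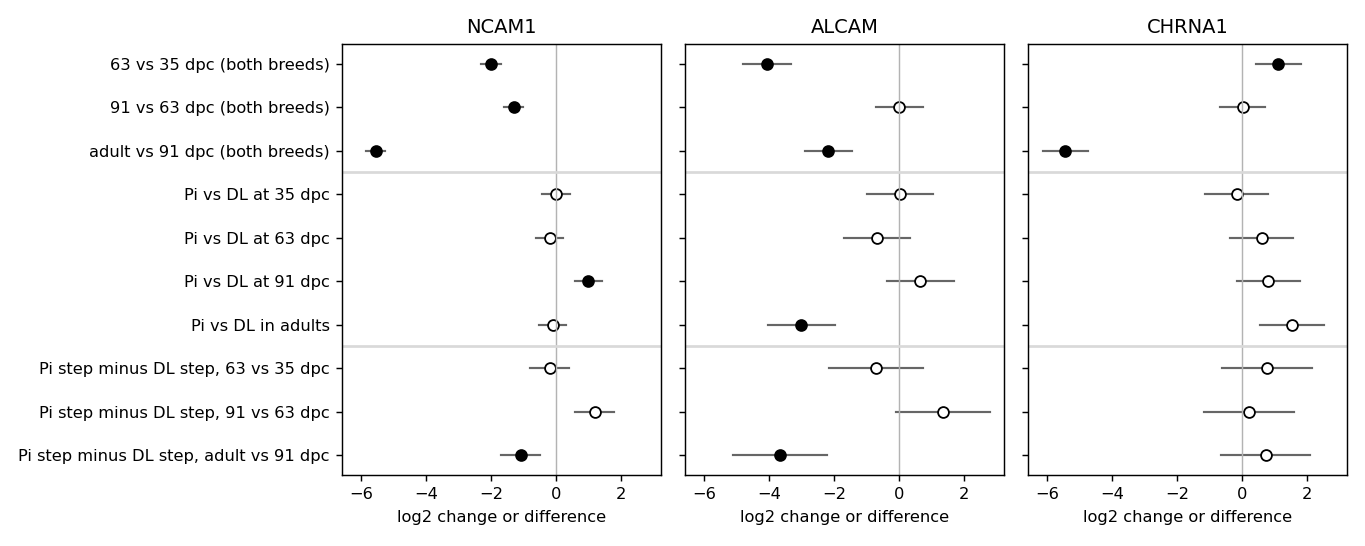
Log2 change or difference of the main probe set of each gene, with 95% intervals from limma, for the 3 stage steps averaged over breeds (top), Pi minus DL at each stage (middle) and the Pi step minus the DL step (bottom). Filled circles were called at an adjusted p below 0.05. CHRNA1 fell by 5.45 in adults, and the point for NCAM1 in adults is a fitted value with all adult pools at background, not an exact size. The largest breed differences plotted are those of ALCAM, -3.02 in adults and -3.67 between the adult steps.

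Neuron and Schwann cell markers, tissues that also make NCAM1 and ALCAM, moved with the early fall of both. Of the 32 genes in that marker list 17 were measured. At 63 against 35 dpc 14 fell and 1 rose, where 22% of all probe sets were called lower and 22.3% higher. The median change of the 17 was -6.47, against 0.004 over all probe sets. Their summed linear intensity was 339 to 373 in Pi and 389 to 586 in DL at 63 dpc, against 49468 to 62493 in Pi and 56520 to 64389 in DL at 35 dpc. Of the 17, only the neuronal markers SNAP25, SYT1 and ELAVL4 lay at background in every group after 35 dpc. The part of these cells in the NCAM1 and ALCAM falls at 63 dpc was not tested.

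After 63 dpc fewer genes of the neural list were called. At 91 against 63 dpc 3 of its 17 genes fell and 1 rose (median 0.01), where 9.4% of all probe sets were called lower and 8.88% higher. In adults against 91 dpc 4 of the 17 fell and 2 rose (median -0.05), where 26.6% were called lower and 30.8% higher. The share called on the whole array also differed between these steps, so the counts do not set the neural list apart. In adults the sum of the list, which follows its brightest genes, was 545 to 569 in Pi and 820 to 1268 in DL. Gene by gene, 16 of the 17 were not called between adult breeds and 1 was lower in Pi (median -0.07), where 3.44% of all probe sets were. In each adult breed 9 of the 17 were at background. The 1 called was S100B (-0.96 ± 0.20), named after its value was seen. UCHL1, a ubiquitin hydrolase on the neural list, rose by 5.72 ± 0.31 in adults, and its adult breed difference was -0.85 ± 0.44, not called. The part of these cells in the adult ALCAM difference was not tested. In adults CHGA, also on the neural list, rose by 1.43 ± 0.43 against 91 dpc. NEFL, SNAP25, RTN1, GAP43, SYT1, ELAVL4, ENO2 and FABP7 lay at background in all 6 adult pools, and the rest of the 17 did not.

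Fibre markers rose while CHRNA1 rose. At 63 against 35 dpc 22.3% of all probe sets were called higher and 22% lower. Of the 15 measured fibre genes 14 rose and 1 fell in that step (median 3.08). At 35 dpc 8 of them were called lower in Pi than in DL, where 2.41% of all probe sets were. Hybridisation-control scaling moved the median breed difference of all probe sets at 35 dpc to 0.51, so breed differences there depend on the scaling. In adults against 91 dpc 30.8% of all probe sets were called higher and 26.6% lower. Of the fibre genes 12 rose and 2 fell in that step (median 0.47), while NCAM1, ALCAM and CHRNA1 fell. Of 5 measured embryonic and fetal sarcomere isoform genes, 4 fell in adults. These included MYL4, the embryonic myosin light chain, by 8.14 ± 0.33, ACTC1, cardiac actin, by 4.62 ± 0.18, and TNNT2, cardiac troponin T, by 4.22 ± 0.21. TNNI1, slow troponin I, rose by 0.89 ± 0.05.

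**Figure D4:**
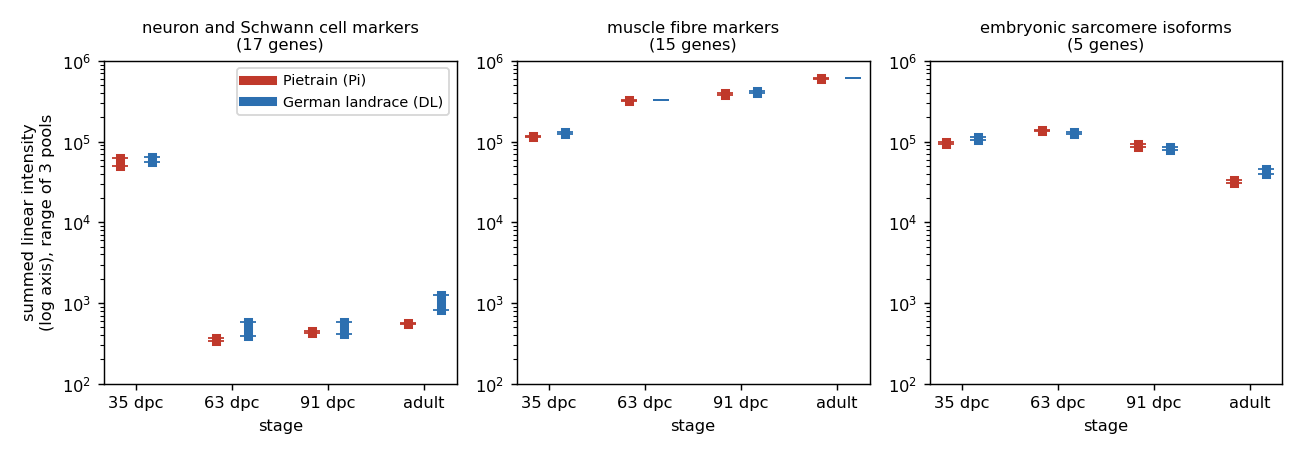
Summed linear intensity on a log axis of the measured neuron and Schwann cell markers (17 genes), muscle fibre markers (15) and embryonic sarcomere isoforms (5) by stage, each bar spanning the 3 pools of Pi (red) or DL (blue). The neural sum is 49468 to 64389 at 35 dpc and at most 1268 in any later pool, and the fibre sum is highest in adults.

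Of 26 genes of the acetylcholine receptor and the neuromuscular junction, 7 had a probe set with that symbol, and CHRNA1 was the only receptor subunit among them. At 63 against 35 dpc 4 rose and 2 fell (median 0.89), where 22.3% of all probe sets were called higher and 22% lower. In adults against 91 dpc 2 rose and 5 fell (median -1.10, against 0.059 over all probe sets). Of all probe sets 30.8% were called higher and 26.6% lower in that step. LAMB2, the laminin chain of the synaptic basal lamina, rose by 3.28 ± 0.08 and then by 1.30 ± 0.08 in fetal life, and fell by 2.38 ± 0.08 in adults. ETV5, a transcription factor of the family that acts on synaptic genes in mouse muscle, rose by 1.35 ± 0.15 at 63 dpc, fell by 0.72 ± 0.15 at 91 dpc, where CHRNA1 was not called, and fell by 2.01 ± 0.15 in adults.

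CTTN, the actin-binding cortactin, rose by 0.89 ± 0.07 and fell by 0.98 ± 0.07 over these same 2 steps. PRKAR1A, a regulatory subunit of protein kinase A, fell by 0.75 ± 0.07 at 63 dpc, by 0.27 ± 0.07 at 91 dpc, and fell by 1.103 ± 0.066 in adults. CDK5, a kinase that disperses receptor clusters in mouse, went the other way from CHRNA1, as it fell by 1.43 ± 0.21 at 63 dpc and rose by 1.45 ± 0.21 in adults. TUFT1 rose by 1.48 ± 0.49 in adults. With hybridisation-control scaling the rises of this list at 63 dpc numbered 2 in place of 4.

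Of 42 adhesion genes 22 were measured, NCAM1 and ALCAM among them. At 63 against 35 dpc 11 rose and 4 fell (median 0.31), where 22.3% of all probe sets were called higher and 22% lower. NCAM1 and ALCAM were among the 4 that fell, with CDH11, a mesenchymal cadherin (-2.16 ± 0.43), and ITGB1, the shared integrin beta chain (-0.61 ± 0.11). Genes that rose included CD9 (2.69 ± 0.14), a tetraspanin, MCAM (2.43 ± 0.49), an immunoglobulin superfamily member of vessels and myoblasts, and THY1 (1.41 ± 0.09), a GPI-anchored surface protein. With hybridisation-control scaling 6 rose and 12 fell, so the direction of the list depends on the scaling, while NCAM1 (-2.82) and ALCAM (-4.88) fell under it as well.

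In adults against 91 dpc 26.6% of all probe sets were called lower and 30.8% higher, with a median change of 0.059. Of the 22 adhesion genes 17 fell and 3 rose in this step, with a median of -1.36. NCAM1 and CDH11 were among those that fell. CDH11 changed by -5.66 ± 0.43 in the fit, with 2 adult Pi pools at background, and NCAM1 was at background in all 6 adult pools, so the sizes of these falls cannot be ranked. MCAM (-3.75 ± 0.49), JAM3 (-2.99 ± 0.14), a junctional adhesion molecule, and VCAM1 (-2.71 ± 0.14), which binds integrins, also fell. The 3 that rose were CADM1, a nectin-like adhesion molecule (2.28 ± 0.36), ICAM1 (0.68 ± 0.17) and CD9 (0.40 ± 0.14). Between adult breeds ALCAM was the only one of the 22 that was called, where 6.33% of all probe sets were. Between breeds at 91 dpc NCAM1 was the only one, where 2.72% were. Such counts are near those shares and do not set these genes apart.

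**Figure D5:**
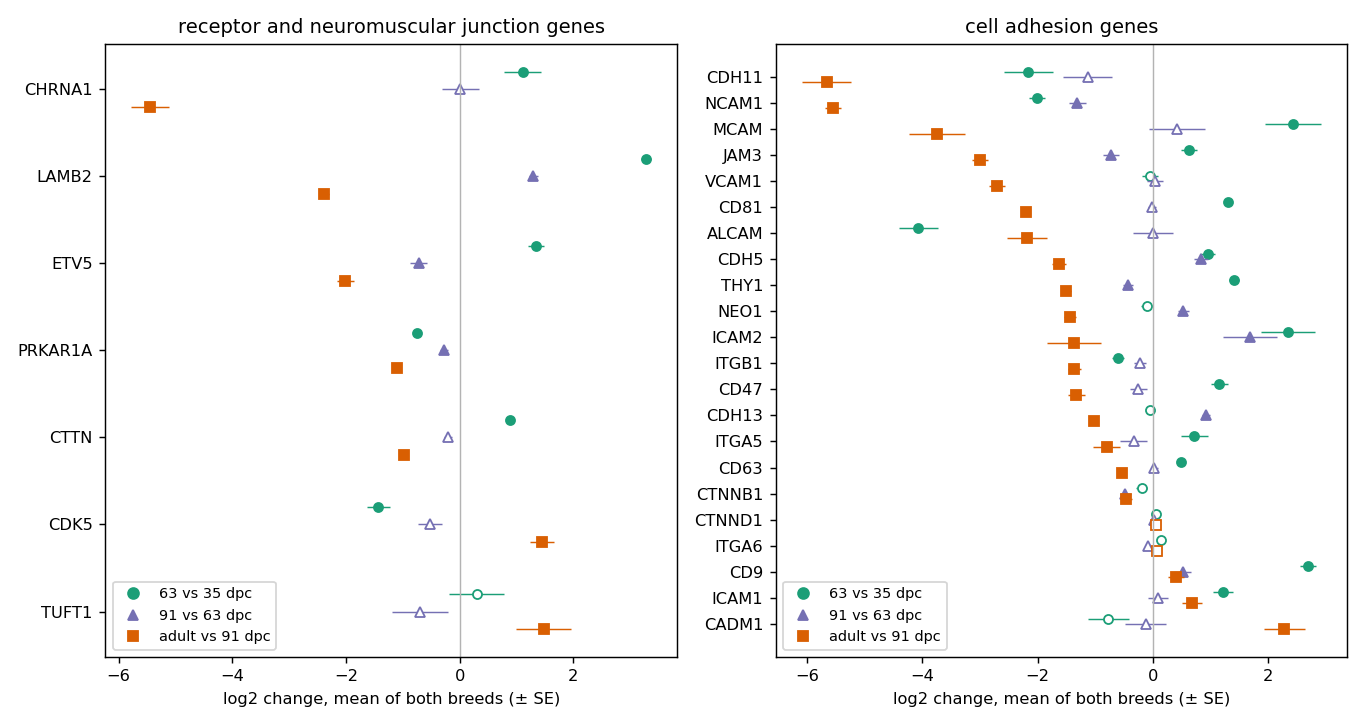
Log2 change ± SE, averaged over breeds, of the 7 measured receptor and junction genes (left) and the 22 measured adhesion genes (right) at 63 against 35 dpc (circles), 91 against 63 dpc (triangles) and adults against 91 dpc (squares), ordered by the adult change. Filled symbols were called. CHRNA1 has an adult change of -5.45, and the adult points of NCAM1 and CDH11 are fitted values that rest on pools at background (all 6 for NCAM1, 2 for CDH11).

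The profiles most like each gene were found by Pearson correlation of levels over the 24 arrays, among 5911 genes. The arrays share 4 stages and 1 normalisation, so a high value describes a shared course over stages. NCAM1 was followed most closely by HSP90AB1, a cytosolic chaperone (0.994), BEX3 (0.994), PDIA6, a disulfide isomerase of the endoplasmic reticulum (0.993), DLGAP5, a mitotic spindle protein (0.993), and ARNT2, a bHLH-PAS transcription factor (0.993). For deviations of pools from their group means, the correlation with NCAM1 was 0.60 for HSP90AB1 and 0.01 for BEX3.

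ALCAM had looser companions, with TAX1BP1, an autophagy receptor (0.957), ITFG1 (0.956), INPP5F, a phosphoinositide phosphatase (0.950), FAM204A (0.945) and LOC100512448 (0.940). CHRNA1 was followed by MFAP2, a microfibril-associated glycoprotein (0.987), GPX7, a peroxidase of the endoplasmic reticulum (0.970), DAB2, an endocytic adaptor (0.966), PTGFRN (0.963) and PLAGL1, a zinc finger factor that is imprinted in mammals (0.961). The deviations of pools from their group means correlated at 0.83 between CHRNA1 and MFAP2, the highest of the 15 pairs.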

How the data were processed

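Per the labels, the RNA was prepared with TRI Reagent and DNaseI and cleaned on columns, and biotin-labelled cRNA was hybridised. The table the authors deposited holds a log2 intensity for every probe set on every array. The submitters' processing notes name GCOS 1.1.1, and no label names the summarisation method. Base 2 is not stated and was read from the range of 1.60 to 16.10. All 24 columns hold the same values once sorted, so the deposited log2 table had been quantile-normalised and cannot show a change in total mRNA. Of 24123 probe sets, 124 controls were left out. The annotation gave 1 symbol for 10069 probe sets, several for 198 and none for 13732, and no symbol was updated through the 9666 matched gene IDs.

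All 24 arrays entered 1 fit of 8 group means with limma 3.58.1 in R 4.3.3 (16 residual and 1.31 prior degrees of freedom, two-sided tests, Benjamini-Hochberg adjustment over 23999 probe sets). The 11 comparisons were 3 stage steps, Pi against DL at each stage and over all stages, and 3 differences of steps between breeds, with 6 steps within a breed beside them. Folds against a group at background were computed against each array's ceiling. The code was tested on simulated data. Genes named beside the members were the 7 and 22 measured genes of the receptor and adhesion lists, the members of the marker lists with the largest changes, and the 5 most correlated genes. Neural markers at background and S100B were named as well. The members and the 11 gene lists (221 genes, 122 measured) were chosen with earlier results of these data known. The alternatives were scaling to 27 hybridisation control probe sets, the pool letter as a block, array weights by stage, only the compared arrays, a filter on dim probe sets, the GAPDH covariate, trended robust moderation, other probe sets and each pool left out. The pool letters do not pair samples: deviations from group means correlated at -0.077 to 0.091 for the same letter. The number of arrays limits the precision. Figures were drawn with matplotlib.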

Additional observations from a re-analysis of the deposited data

Results flagged for a closer look

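For ALCAM (Ssc.16750.1.A1_at) the change between 91 dpc and the adult stage differed between the breeds by a direct test of the difference. The Pi step minus the DL step was -3.67 (limma, adjusted p = 0.00842). The adult pools held 2.40 to 2.50 in Pi and 4.80 to 6.34 in DL. The adjusted p over the 7 alternative fits ranged from 0.00699 to 0.138.

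For NCAM1 (Ssc.6092.1.A1_at) the same difference of steps was -1.09 (limma, adjusted p = 0.0482). The adult pools of both breeds were at background, and the breeds differed at 91 dpc by 0.99. Over the 7 alternative fits the adjusted p ranged from 0.0544 to 0.337, and it exceeded 0.05 without any 1 of 10 of the 12 pools.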

How the results depend on the processing

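The NCAM1 falls at all 3 stage steps, the ALCAM fall at 63 dpc and the adult CHRNA1 fall kept their direction and call in the 7 alternative fits and without each pool. Scaling to hybridisation controls ended the calls of CHRNA1 at 63 against 35 dpc (0.30), of NCAM1 between breeds at 91 dpc (0.67) and of the adult NCAM1 difference of steps (-0.99), and brought a call for the NCAM1 difference of steps at 63 dpc (-0.83). With the pool letter as a replicate block, the adult CHRNA1 breed difference (1.53) passed, the NCAM1 difference of adult steps (-1.09) did not, and no other call changed. Array weights by stage ended the calls of ALCAM between adult breeds (-3.02) and of the adult differences of steps of NCAM1 (-1.09) and ALCAM (-3.67), and CHRNA1 over all stages (0.69) passed. Fits on only the compared arrays ended the same 3 calls at the same values, with NCAM1 between breeds at 91 dpc (0.99).

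Without dim probe sets, and with trended robust moderation, the NCAM1 difference of adult steps (-1.09) did not pass, and in the second of these the adult CHRNA1 breed difference (1.53) did. With the GAPDH covariate ALCAM in adults against 91 dpc (-0.93), NCAM1 between breeds at 91 dpc (0.63) and the adult differences of steps of NCAM1 (-0.62) and ALCAM (-3.05) did not pass. The covariate did not overlap between adult and fetal arrays, so it cannot be told apart from the step to adults. With the mean of a gene's probe sets NCAM1 between breeds at 91 dpc (0.42), ALCAM between adult breeds (-0.86) and the NCAM1 difference of adult steps (-0.43) did not pass. Causes were not tested.

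Other NCAM1 probe sets gave no call between breeds at 91 dpc (0.094 for Ssc.20816.1.S1_at, 0.48 for Ssc.6092.2.S1_at, 0.12 for Ssc.6092.3.S1_at) or for the difference of adult steps (-1.43, and the opposite signs 0.15 and 0.65), and Ssc.6092.3.S1_at gave none in adults against 91 dpc (-0.85). For ALCAM, Ssc.13385.2.S1_a_at gave 0.65 between adult breeds, the opposite sign, and -0.71 for the difference of adult steps. Ssc.443.1.S1_at gave the opposite sign in adults against 91 dpc (0.61, not called, and 1.25 within DL, called), and no call between adult breeds (-1.10) or between steps (-1.27). Ssc.443.1.A1_at, at background everywhere, gave -0.028 at 63 dpc, 0.10 in adults against 91 dpc (0.10 within Pi), 0.040 between adult breeds and 0.0086 between steps.

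With 1 pool left out, calls changed for ALCAM over all stages (-0.87 to -0.57), CHRNA1 between adult breeds (1.099 to 2.20) and over all stages (0.58 to 0.86), NCAM1 between breeds at 91 dpc (0.70 to 1.21), and the NCAM1 differences of steps at 91 dpc (0.90 to 1.41) and in adults (-1.32 to -0.81). Within Pi they also changed for NCAM1 at 91 against 63 dpc (-0.86 to -0.63), CHRNA1 at 63 against 35 dpc (1.39 to 1.59) and ALCAM at 91 against 63 dpc (0.20 to 1.41).

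Over all probe sets, hybridisation-control scaling gave 17663 calls at 63 against 35 dpc in place of 10611, 8423, 212 and 2550 between breeds at 35, 63 and 91 dpc in place of 966, 329 and 653, and 7065 and 378 differences of steps at 63 dpc and in adults in place of 793 and 638. Array weights gave 2746, 816 and 243 between breeds at 35 dpc, at 63 dpc and in adults (the last in place of 1519), and 2035, 59 and 132 differences of steps (the 59 in place of 22). Only the compared arrays gave 11, 16 and 21 between breeds at 63 dpc, 91 dpc and in adults, and 1395, 7 and 80 differences of steps. The GAPDH covariate gave 5270 in adults against 91 dpc in place of 13772, 280 and 621 between breeds at 91 dpc and over all stages (the last in place of 1509), and 44 and 324 differences of steps at 91 dpc and in adults. The arrays' number and the background ceiling limit what can be seen in adults.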
